A study of Mus musculus and Rattus norvegicus with 32 samples.

Results

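The angiotensin and endothelin systems were followed through 9 genes, chosen by name: each row whose symbol was Agt, Ace, Agtr1a, Agtr2, Edn1, Edn3, Ednra, Ednrb or Ece1 was taken from the 4 deposited tables of gene counts. The choice was made with earlier results of these data known. Each table held all 9 genes, among 55487 genes in the 3 tables of mouse hearts and 32883 in the table of rat cardiomyocytes. The hearts came from C57BL/6 mice in 3 settings, with 4 libraries per group. Mice of 1 month labelled METTL5-KO were compared with control mice. Mice of 3 months labelled METTL5-cKO were compared with control mice, and so were mice of the same label and age 4 weeks after transverse aortic constriction (TAC), a narrowing of the aorta that loads the heart with pressure. METTL5-cKO mice carry METTL5 alleles with exons 2 to 4 between loxP sites and Cre under the Myh6 promoter, which acts in cardiomyocytes, so the other cells of the heart keep the gene. Controls were littermates, but the labels do not say which of these alleles they carried. The last table held neonatal rat ventricular myocytes (NRVMs) of postnatal day 2 from Sprague Dawley rats, left on a first plate for 1 h so that fibroblasts would stay behind. They were infected with adenovirus carrying METTL5 (AdMETTL5, the human coding sequence under a CMV promoter) or GFP (AdGFP), and all received 20 µM phenylephrine (PE), an agonist of alpha-adrenergic receptors, for 24 h.

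Both systems act through small peptides that are cut from larger precursors. Angiotensinogen, the product of Agt, is cut by renin to angiotensin I, from which ACE makes angiotensin II, and angiotensin II acts on the type 1 receptor (Agtr1a in rodents) and the type 2 receptor (Agtr2). Endothelins are made from big endothelins by the endothelin-converting enzyme (Ece1), and act on the ETA receptor (Ednra), through which vessels and cardiac cells contract and grow, and the ETB receptor (Ednrb), which in endothelium relaxes vessels and clears the peptide. In the heart, ACE is known from endothelium and from fibroblasts of remodelled tissue, endothelin from Edn1 is made mainly by endothelium, and both systems are known for their part in hypertrophy and fibrosis.

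The 24 heart libraries held 19899033 to 21804907 counts each, and the 8 NRVM libraries 14324700 to 18085339. Of the latter, the AdGFP libraries held 17344430 or more and the AdMETTL5 libraries 14642431 or fewer. Raw counts of these 2 groups are thus not directly comparable. Levels are given as CPM, counts relative to library sizes scaled by the TMM method, and a gene passed where edgeR's quasi-likelihood test gave an adjusted p (Benjamini-Hochberg, over all genes tested in its table) under 0.05. The count of Mettl5 over its whole length did not check the labels of the hearts, since it differed by log2 fold changes (log2FC) of 0.22, -0.18 and -0.04 at 1 month, at 3 months and after TAC (adjusted p = 0.973, 0.884 and 0.874, edgeR). The study reports that METTL5-cKO hearts had hardly any reads over the exons between the loxP sites, which a count over the whole gene does not isolate. In the NRVMs, rat Mettl5 was 0.32 higher on the log2 scale with AdMETTL5 (adjusted p = 0.00295, edgeR), where 52.8% of all genes passed. The virus carried the human sequence, so this count of the rat gene does not measure expression from the virus. Whether reads of the human sequence were counted with the rat gene was not tested. No cardiomyocyte marker was at 0 in any group, and the atrial markers Sln, Myl7 and Bmp10 summed to at most 1.24 CPM in any heart. In bulk RNA of this kind, fewer cells of a type and less RNA per cell cannot be told apart. Nothing in the labels ties the libraries of a group to separate animals or cultures, so p-values measure the spread between these libraries.

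The members are spread over the mouse genome (GRCm38). Agt (ENSMUSG00000031980) lies on chromosome 8 from 124556534 to 124569706, minus strand, and Ednra (ENSMUSG00000031616) on the same chromosome from 77663031 to 77724464, minus strand. Ace (ENSMUSG00000020681) lies on chromosome 11 from 105967945 to 105989964, plus strand. Ece1 (ENSMUSG00000057530) lies on chromosome 4 from 137862237 to 137965229, plus strand. Edn1 (ENSMUSG00000021367) and Agtr1a (ENSMUSG00000049115) share chromosome 13, from 42301476 to 42307990 and from 30336441 to 30382867, both on the plus strand. Edn3 (ENSMUSG00000027524) lies on chromosome 2 from 174760619 to 174784042, plus strand, Ednrb (ENSMUSG00000022122) on chromosome 14 from 103814625 to 103844402, minus strand, and Agtr2 (ENSMUSG00000068122) on chromosome X from 21484544 to 21489164, plus strand. Exons of Ace overlap Gm11651 on the other strand, those of Edn1 overlap Gm47118, and those of Ednra overlap 4933431K23Rik, and whether the counting used strand is not given in the sources used here, so these counts are uncertain to that extent. Agtr1b, the near copy of Agtr1a, was listed with at most 7 counts in any library.

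The promoters of the 3 members that passed the test after TAC are shown because these genes were higher in the same hearts. Each covers 250 bases before the annotated start and 50 from it on, as given by RefSeq for GRCm38.p6, and 8 of the 9 members had an entry. Capitals mark the motifs found in a search of both strands. The AP-1 motif was searched as TGACTCA and its reverse complement, TGAGTCA. The motif of the GATA factors was searched as the letters AGATAA, the one of the basal promoter box as the letters TATAAA, and the box bound by NF-Y as the letters CCAAT. No motif overlaps another in these windows.
Ace, chr11:105967698-105967997, plus strand: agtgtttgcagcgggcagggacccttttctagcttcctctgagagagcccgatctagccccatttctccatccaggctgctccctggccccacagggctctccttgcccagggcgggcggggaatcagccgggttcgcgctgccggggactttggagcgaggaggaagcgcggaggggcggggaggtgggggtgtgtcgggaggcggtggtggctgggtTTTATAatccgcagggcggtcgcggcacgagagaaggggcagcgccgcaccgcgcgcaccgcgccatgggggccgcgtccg
Edn3, chr2:174760369-174760668, plus strand: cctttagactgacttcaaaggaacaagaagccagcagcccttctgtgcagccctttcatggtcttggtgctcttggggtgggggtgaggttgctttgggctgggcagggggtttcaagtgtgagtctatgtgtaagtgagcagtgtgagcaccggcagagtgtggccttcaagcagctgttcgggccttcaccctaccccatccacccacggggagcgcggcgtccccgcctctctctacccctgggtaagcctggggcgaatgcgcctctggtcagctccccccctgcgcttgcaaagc
Edn1, chr13:42301226-42301525, plus strand: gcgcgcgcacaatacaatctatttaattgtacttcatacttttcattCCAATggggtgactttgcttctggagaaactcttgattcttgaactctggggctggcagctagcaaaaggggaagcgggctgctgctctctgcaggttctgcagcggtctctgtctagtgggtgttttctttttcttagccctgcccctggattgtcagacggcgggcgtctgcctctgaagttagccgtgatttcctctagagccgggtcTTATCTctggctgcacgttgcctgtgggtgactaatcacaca
Counting the first transcribed base as 0, the Ace window held the TATA letters from -31 to -26 on the minus strand, and 13.6% of all 32851 mouse promoters in the table hold them somewhere. The Edn1 window held CCAAT from -203 to -199 on the plus strand and the GATA letters from 8 to 13 on the minus strand, which 37.4% and 11.2% of promoters hold. None of the 4 motifs was in the Edn3 window, and the AP-1 letters, found in 5.2% of promoters, were in none of the 3. The Ace window was rich in CG dinucleotides, with 29, more than 87.1% of promoters, where Edn1 had 11, Edn3 had 10 and the median promoter 7. A second start within Ace, chr11:105974939-105975238, had 2. These are descriptions of letters, and the tables measured no binding.

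To compare levels between genes, CPM were divided by the exon length in kb. In the control hearts of 1 month, the enzyme Ece1 stood highest at 15.8 ± 2.42 CPM per kb (SD, n = 4), above the receptor Agtr1a at 5.97 ± 1.15 and Ace at 5.51 ± 0.660, whose libraries overlapped each other. Ednrb, Ednra and Edn1 followed between 2.79 and 3.75 CPM per kb with overlapping libraries, and Agt stood at 1.56 ± 0.629. Edn3 was close to 0 at 0.0545 ± 0.0417 CPM per kb, from 0 to 8 counts, and Agtr2 had no count. In the 3-month controls, Ece1 again led at 12.4 ± 1.41 CPM per kb, and its libraries overlapped those of Ace at 8.90 ± 1.99. In the TAC controls, Ace stood first with 12.3 to 14.4 CPM per kb and Ece1 second with 11.2 to 12.6, with overlapping libraries, followed by Ednra at 6.56 ± 1.63 and Agtr1a at 5.76 ± 0.731, which also overlapped. Ednrb (3.56 ± 0.186), Agt (2.92 ± 0.387) and Edn1 (2.07 ± 0.255) were separate from their neighbours above, and Edn3 reached 1.10 ± 0.588 CPM per kb, overlapping Edn1. Between the control groups of the 3 tables, Ace had 29.1, 47.0 and 68.5 CPM and Edn3 0.224, 1.84 and 4.51 at 1 month, at 3 months and after TAC, but each table was scaled on its own, and age, operation and batch cannot be told apart in these values. Agtr2 had no count in any library at 3 months or after TAC, which allows up to 0.121 to 0.156 CPM in a library (3 counts, counting error only).

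**Figure D1:**
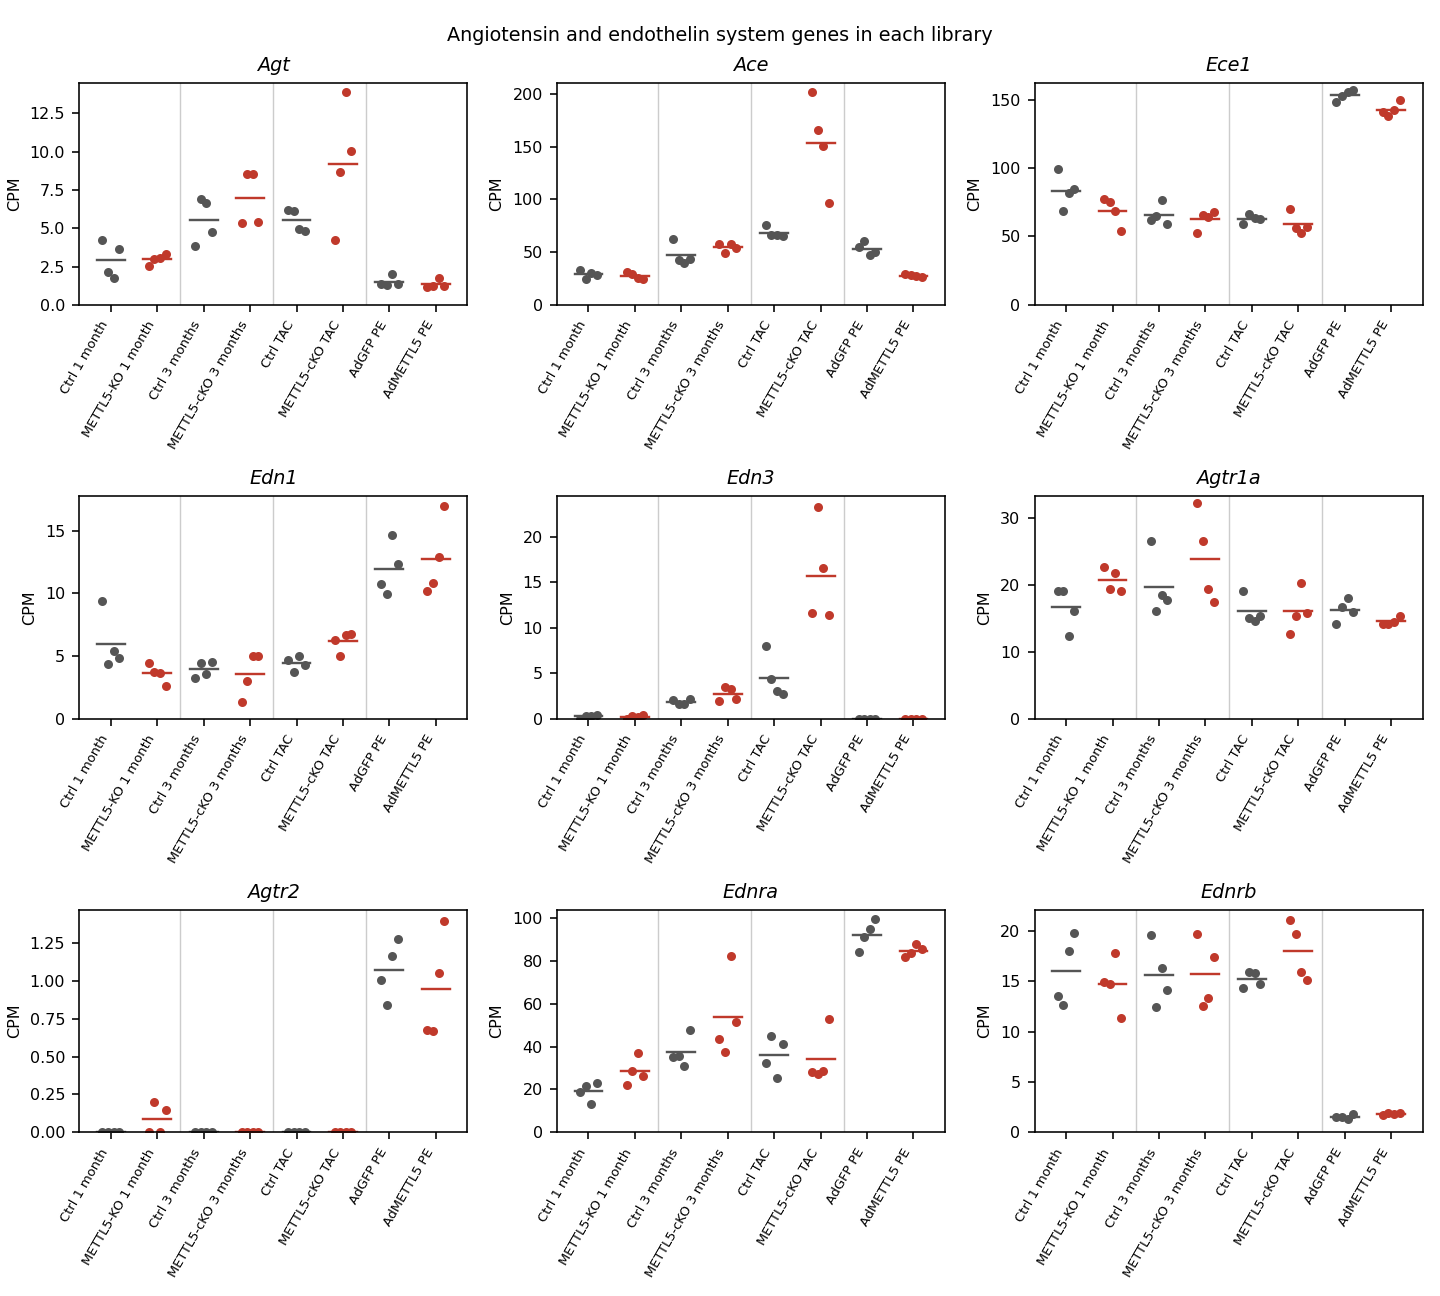
Level of each gene in each library, as CPM on a linear axis that starts at 0, in the 8 groups. Points are libraries, horizontal lines are means of 4, grey marks controls or AdGFP and red marks METTL5-KO, METTL5-cKO or AdMETTL5. The 4 METTL5-cKO TAC libraries lie above all control TAC libraries for Ace, Edn3 and Edn1, and the 4 AdMETTL5 libraries lie below all AdGFP libraries for Ace.

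After TAC, the hearts labelled METTL5-cKO had more RNA of Ace and of the ligand genes Edn3 and Edn1 than the control hearts. The other members tested, Agt, Ece1 and the receptors, did not pass. Edn3 and Edn1 were not tested against the receptors. Edn3 was 3.48-fold higher, Ace 2.25-fold and Edn1 1.40-fold. Of the 8 members tested, these 3 passed and were higher, none passed and was lower, and the median log2FC was 0.36, against -0.00 over all genes tested. In this comparison 12.7% of the 16340 genes tested passed, and in 18.6% the 2 groups had no overlap. The members were chosen with earlier results of these data known, so these shares describe the list and do not test it. Without control TAC library 2 or 4, Ace was the 1 member that passed, where 4.20% and 2.87% of all genes did. Over the 8 fits that left out 1 library, Ace passed in 8, Edn3 in 6 and Edn1 in 1.

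Ace, the enzyme that makes angiotensin II, had 76.1, 66.5, 66.3 and 65.3 CPM in control TAC libraries 1 to 4, and 202, 166, 150.2 and 97.0 CPM in the libraries labelled METTL5-cKO TAC 1 to 4. The groups did not overlap, and library 4 of the METTL5-cKO hearts was the lowest of its group. The means were 68.5 ± 5.05 and 154 ± 43.6 CPM (SD, n = 4), and the log2FC was 1.17 (SE 0.189, 95% interval 0.74 to 1.59, adjusted p = 0.00994, edgeR). Without any 1 of the 8 libraries the log2FC stayed between 1.01 and 1.34 with an adjusted p of at most 0.0410. It is among the genes that also pass the study's added minimum of 1 on the log2 scale.

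Edn3, an endothelin best known from the development of neural crest cells, had 7.97, 4.32, 3.07 and 2.66 CPM in the control TAC libraries, from 55 to 161 counts. The libraries labelled METTL5-cKO TAC had 11.7, 23.3, 16.5 and 11.4 CPM, from 228 to 511 counts. Here too the groups did not overlap, with control library 1 the nearest to the other group. The log2FC was 1.80 (SE 0.353, 95% interval 1.01 to 2.59, adjusted p = 0.0163, edgeR), and this gene passed the added minimum as well. The adjusted p was 0.0504 without control TAC library 2 and 0.0532 without control TAC library 4.

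Edn1, the main endothelin of the cardiovascular system, had 4.70, 3.74, 4.99 and 4.26 CPM in the control TAC libraries and 6.31, 5.01, 6.66 and 6.78 CPM in the libraries labelled METTL5-cKO TAC. The lowest of these lay just above the highest control. The log2FC was 0.48 (SE 0.134, 95% interval 0.19 to 0.78, adjusted p = 0.0435, edgeR), under the added minimum. The call was lost in 7 of the 8 fits that left out 1 library, with adjusted p from 0.0547 to 0.117, and kept without METTL5-cKO TAC library 2 (0.0478). For each of the 3 genes the exact two-sided permutation test of log2 CPM gave p = 0.0286, the smallest that 70 ways of labelling 4 against 4 libraries allow. Groups that do not overlap always give this value, and 18.6% of all genes tested after TAC had such groups.

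The precursor Agt had 6.19, 6.12, 4.94 and 4.84 CPM in the control TAC libraries and 4.20, 8.65, 13.9 and 10.0 CPM in the libraries labelled METTL5-cKO TAC. Its groups overlapped through METTL5-cKO library 1, the lowest of all 8, and its log2FC of 0.74 did not pass (SE 0.298, adjusted p = 0.127, edgeR). Without that library it was 0.98 (adjusted p = 0.0231, edgeR). Ece1, the converting enzyme of the endothelins, lay at 59.2 to 66.6 CPM in the controls and 52.6 to 70.3 CPM in the METTL5-cKO hearts, a log2FC of -0.09 (95% interval -0.31 to 0.12).

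Of the receptors, Agtr1a had 19.1, 15.1, 14.7 and 15.4 CPM in the controls and 12.7, 15.4, 20.3 and 15.9 CPM in the METTL5-cKO hearts. Its groups overlapped fully, and the log2FC was 0.00 with a 95% interval of -0.32 to 0.33. Ednra had 32.2, 44.9, 25.1 and 41.3 CPM in the controls and 28.0, 27.4, 28.9 and 53.0 CPM in the METTL5-cKO hearts, where library 4 stood apart from the other 3, and its log2FC was -0.07 (95% interval -0.62 to 0.49). Ednrb had 15.2 ± 0.795 and 18.0 ± 2.87 CPM, a log2FC of 0.24 (SE 0.114, adjusted p = 0.185, edgeR). Scaled by library size alone, the values of Ece1 and Ednra turned to 0.05 and 0.06. That scaling moved the median over all genes from -0.00 to 0.14 after TAC and to 0.13 in NRVMs, and the share of higher genes among those that passed from 51.9% to 79.7% and from 51.4% to 71.5%.

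Markers of other cell types moved in the same TAC hearts, in a comparison where 12.7% of all genes tested passed. Of 8 fibroblast markers, 6 were higher in the METTL5-cKO hearts, and their summed level was 685, 547, 659 and 527 CPM in control libraries 1 to 4 and 2627, 1816, 1787 and 822 CPM in METTL5-cKO libraries 1 to 4. Ace had the same order among the METTL5-cKO libraries, with library 1 highest and library 4 lowest, while Edn3 was highest in library 2 and Edn1 in library 4. Of 9 endothelial markers, 5 were lower and none higher, with sums of 718 to 858 CPM in the controls and 512 to 651 CPM in the METTL5-cKO hearts. Of 8 cardiomyocyte markers 1 was lower, with sums of 29206 to 33936 and 21836 to 28728 CPM, and of 10 mural markers 1 was higher and 1 lower. Library 4 of the METTL5-cKO hearts also had the highest cardiomyocyte, endothelial and mural sums of its group, at 28728, 651 and 768 CPM. Library 4 was thus the lowest of its group for the fibroblast sum and the highest for these other sums. None of the markers of these 4 lists was at 0, while all 3 atrial markers had no count in the control and 2 in the METTL5-cKO TAC hearts. The part of these shifts in the levels of Ace, Edn3 and Edn1 was not tested.

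**Figure D2:**
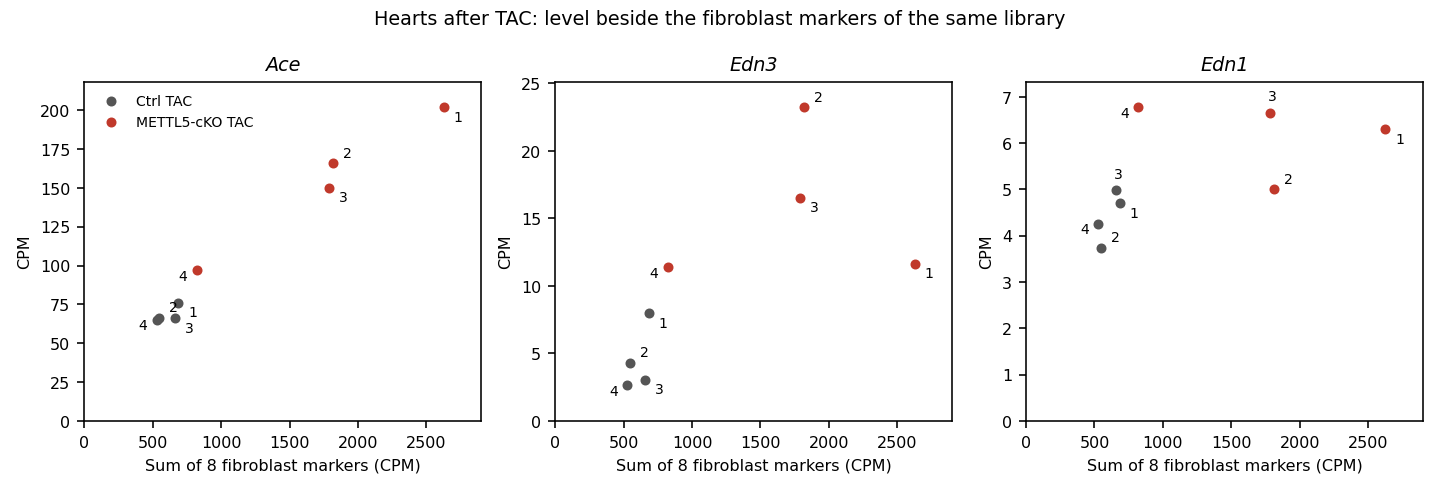
Level of Ace, Edn3 and Edn1 (CPM, vertical) against the summed level of 8 fibroblast markers (CPM, horizontal) in each of the 8 TAC libraries, on linear axes. Numbers are libraries within a group, grey for control and red for METTL5-cKO. Ace is highest in the METTL5-cKO library with the highest marker sum (202 and 2627 CPM) and lowest in that with the lowest (97.0 and 822 CPM), while Edn1 spans 5.01 to 6.78 CPM in these 4 libraries.

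In NRVMs under PE, Ace was the 1 member that passed, and it was lower with AdMETTL5. Of 8 members tested none was higher and 1 was lower, with a median log2FC of -0.14 against -0.00 over all genes, in a comparison where 52.8% of 15041 genes passed and 48.4% had groups that did not overlap. Without AdGFP library 1, 4 members were lower (49.8% of all genes passed), and without AdMETTL5 library 4, 2 members (50.7%). The table of the rat genes has no annotation of exon lengths here, so levels are not compared between genes.

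Ace (ENSRNOG00000062101 in the rat) had 55.0, 60.4, 46.9 and 50.5 CPM in AdGFP libraries 1 to 4 and 29.3, 28.0, 27.0 and 26.6 CPM in AdMETTL5 libraries 1 to 4. All AdMETTL5 libraries lay well below all AdGFP libraries. The means were 53.2 ± 5.80 and 27.7 ± 1.22 CPM (SD, n = 4), and the log2FC was -0.94 (SE 0.0764, 95% interval -1.11 to -0.77, adjusted p = 1.14e-06, edgeR). The gene was thus 1.92-fold lower, just under the study's added minimum, and it passed in all 8 fits that left out 1 library.

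The converting enzyme Ece1 had 149, 153, 156 and 157 CPM with AdGFP and 141, 138, 142 and 150.2 CPM with AdMETTL5, where library 4 reached into the AdGFP range. Its log2FC of -0.11 missed the threshold (SE 0.0427, adjusted p = 0.0536, edgeR). Ednra had 84.0, 91.2, 94.8 and 99.5 CPM with AdGFP and 81.9, 83.7, 87.8 and 85.4 CPM with AdMETTL5, overlapping at AdGFP library 1, and its log2FC was -0.13 (adjusted p = 0.0723, edgeR). Both passed with DESeq2, at adjusted p = 0.00897 and 0.0326, where 45.2% of all genes did, and their values turned to 0.03 and 0.01 when scaled by library size alone. Agtr1a had 16.2 ± 1.64 and 14.5 ± 0.578 CPM, a log2FC of -0.16 (95% interval -0.33 to 0.02).

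The other receptor genes had few counts in the NRVM libraries. Ednrb had 22 to 31 counts with AdGFP and 26 to 30 with AdMETTL5, a log2FC of 0.27 with a 95% interval of -0.11 to 0.64, and Agtr2 had 14 to 22 and 10 to 22 counts, with 95% interval -0.79 to 0.45 around -0.17. Edn1 was measured at 11.9 ± 2.09 and 12.7 ± 3.05 CPM, a log2FC of 0.10 (95% interval -0.25 to 0.45), and Agt at 1.26 to 2.04 and 1.15 to 1.77 CPM, a log2FC of -0.17 (95% interval -0.68 to 0.34). Edn3 had no count in any of the 8 libraries, which allows up to 0.174 to 0.202 CPM in a library.

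Beside these values, all 8 cardiomyocyte markers were lower with AdMETTL5, with sums of 18084 to 20318 CPM against 8721 to 9456 CPM. Of 8 fibroblast markers 7 were lower, with sums of 11609 to 12229 CPM against 9168 to 10110 CPM, so fibroblast markers were present in these cultures after pre-plating. Of 6 endothelial markers tested, 1 was higher, with sums of 44.7 to 47.9 and 57.4 to 61.9 CPM, and 1 of 8 such markers had no count with AdMETTL5. Of 10 mural markers, 4 were higher and 2 lower, and both atrial markers tested were lower. Among all genes tested in NRVMs, 52.8% passed. The part of these shifts in the level of Ace was not tested.

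In hearts without the operation no member passed. At 3 months 0.0732% of the 16391 genes tested passed, and the groups did not overlap for 4.23%, while those of each of the 8 members tested overlapped. Ace had 62.5, 42.4, 39.3 and 43.9 CPM in the controls and 57.9, 49.2, 58.1 and 53.5 CPM in the hearts labelled METTL5-cKO, where control library 1 was the highest of all, and its log2FC was 0.22 (95% interval -0.11 to 0.54, adjusted p = 0.890, edgeR). Edn3 had 2.00, 1.62, 1.65 and 2.09 CPM in the controls and 1.90, 3.51, 3.23 and 2.14 CPM in the METTL5-cKO hearts. Libraries 2 and 3 of that group were above all others, and the log2FC was 0.55 (SE 0.224, unadjusted p = 0.0355, adjusted p = 0.663, edgeR). Ednra reached 82.3 CPM in METTL5-cKO library 3 against 30.9 to 51.4 CPM in the other 7 libraries, with a log2FC of 0.52 (adjusted p = 0.722, edgeR). The other log2FCs ran from -0.13 for Edn1 to 0.33 for Agt, with adjusted p of at least 0.904 (edgeR).

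At 1 month 0.00612% of the 16329 genes tested passed, which was 1 gene, and the groups did not overlap for 3.01%. None of the 7 members tested passed or had groups that did not overlap. Edn1 had 9.39, 4.32, 5.37 and 4.81 CPM in the controls and 4.43, 3.73, 3.66 and 2.62 CPM in the hearts labelled METTL5-KO. Control library 1 was far above the rest and also had the highest TMM factor of the table (1.25, against 0.796 for control library 3, the lowest), and the log2FC was -0.73 (SE 0.267, unadjusted p = 0.0220, adjusted p = 0.973, edgeR), or -0.41 without that library. Ednra had 18.9, 21.8, 13.4 and 22.8 CPM in the controls and 22.1, 28.5, 37.2 and 26.5 CPM in the METTL5-KO hearts, with overlap at control library 4 and a log2FC of 0.57 (unadjusted p = 0.0178, adjusted p = 0.973, edgeR). Agtr1a had 16.6 ± 3.19 and 20.8 ± 1.76 CPM (SD, n = 4), with a log2FC of 0.32 (95% interval -0.01 to 0.64). Ace, Agt, Ece1 and Ednrb had log2FCs of -0.07, 0.00, -0.28 and -0.12, with 95% intervals that each held 0. Edn3 had 0 to 8 counts in the controls and 0 to 7 in the METTL5-KO hearts, and Agtr2 0 to 4 counts in the latter, both too few to be tested. No marker of any of the cell type lists passed at 1 or 3 months, and the fibroblast sums were 465 to 873 CPM in the controls and 644 to 922 CPM in the METTL5-KO hearts at 1 month, and 395 to 521 and 474 to 691 CPM in the control and METTL5-cKO hearts at 3 months.

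**Figure D3:**
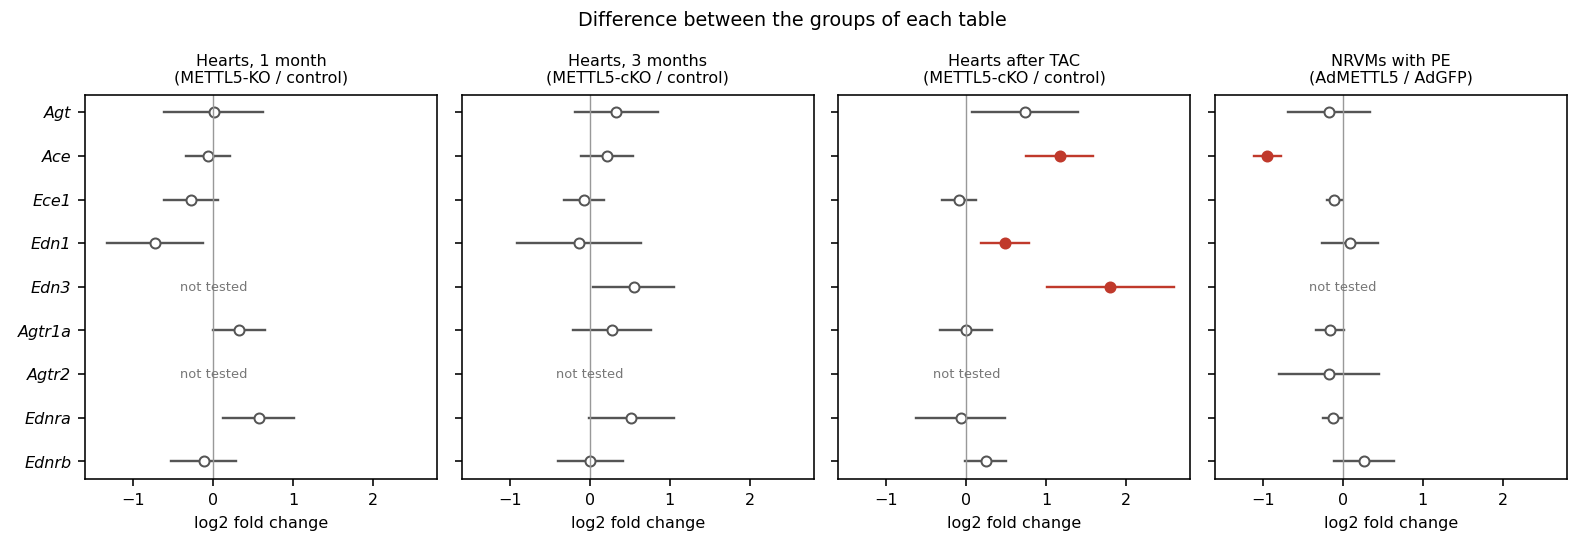
Log2 fold change of each gene (points) with its 95% interval (lines) in the 4 comparisons, from edgeR. Red filled points passed at adjusted p under 0.05 over all genes tested, and open points did not. The 3 red points after TAC lie at 1.80 (Edn3), 1.17 (Ace) and 0.48 (Edn1), the 1 red point in NRVMs at -0.94 (Ace), and none is red in the other 2 comparisons.

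Whether the difference between genotypes after TAC differed from that at 3 months was tested by an interaction term over both tables. None of the members passed, where 0.00586% of the 17070 genes tested did, which was 1 gene. For Ace the difference after TAC exceeded that at 3 months by 0.97 on the log2 scale (SE 0.257, 95% interval 0.42 to 1.51, unadjusted p = 0.00178, adjusted p = 0.160, edgeR). DESeq2, which called 1.45% of all genes, put its adjusted p at 0.0300. Without METTL5-cKO TAC library 4 edgeR put it at 0.00481, in a fit where 3.91% of all genes passed. For Edn3 the value was 1.27 (95% interval 0.27 to 2.27, adjusted p = 0.302, edgeR), for Edn1 0.63 (95% interval -0.20 to 1.47) and for Ednra -0.57 (95% interval -1.36 to 0.22). The calls of Ace, Edn3 and Edn1 after TAC are thus not shown by edgeR to differ from their values at 3 months.

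Ratios of 2 genes within a library do not depend on the scaling between libraries, and 12 were compared (3 ratios in 4 tables, counts plus 0.5). The ratio of the enzymes, Ace to Ece1, was 1.29, 0.998, 1.04 and 1.04 in the control TAC libraries and 2.88, 2.94, 2.86 and 1.70 in those labelled METTL5-cKO TAC. Its log2 value was 1.22 higher in the latter, and the groups did not overlap (exact two-sided permutation test, p = 0.0286, adjusted over the 12 ratios 0.0857). In NRVMs the same ratio was 0.370, 0.394, 0.301 and 0.321 with AdGFP and 0.208, 0.203, 0.190 and 0.177 with AdMETTL5, a log2 difference of -0.83 (exact permutation p = 0.0286, adjusted 0.0857). At 1 month it was 0.333 to 0.367 in the controls and 0.376 to 0.453 in the METTL5-KO hearts, a log2 difference of 0.21 without overlap (exact permutation p = 0.0286, adjusted 0.0857). At 3 months the log2 difference was 0.31 (exact permutation p = 0.229). The ratio of the endothelin receptors, Ednra to Ednrb, was 0.745 to 1.72 in the 1-month controls and 1.48 to 2.34 in the METTL5-KO hearts (log2 difference 0.69, exact permutation p = 0.0571, adjusted 0.137). At 3 months and after TAC its log2 differences were 0.47 and -0.32 (exact permutation p = 0.229 and 0.457). In NRVMs it was 54.5 to 73.9 with AdGFP and 43.0 to 49.6 with AdMETTL5 (log2 difference -0.40, exact permutation p = 0.0286, adjusted 0.0857). With 4 against 4 libraries no ratio passed the adjustment over all 12. The smallest p the exact permutation test allows, 0.0286, became 0.0857 by the adjustment. Even ratios whose groups did not overlap could thus not pass here. The ratio of Agtr1a to Ednra differed by -0.24 to 0.08 on the log2 scale in the 4 tables (adjusted p of at least 0.471, exact permutation).

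**Figure D4:**
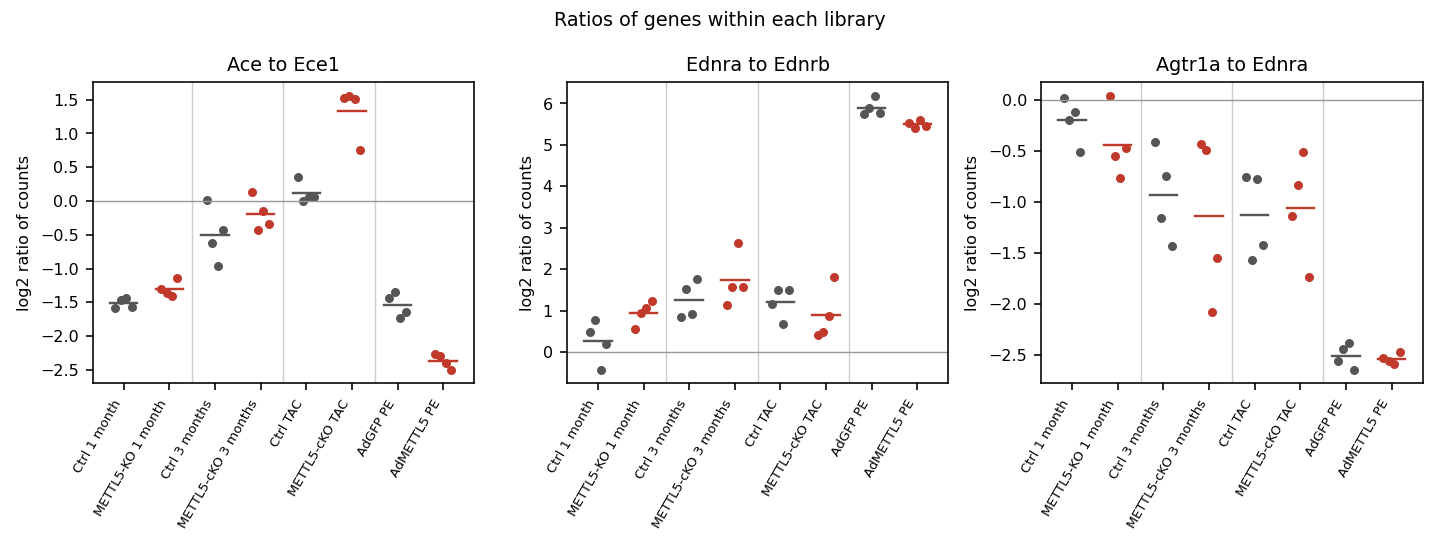
Log2 ratio of counts within each library (vertical) in the 8 groups for Ace to Ece1, Ednra to Ednrb and Agtr1a to Ednra. Points are libraries, lines are means of 4, grey marks controls or AdGFP, red the other groups. For Ace to Ece1 the means are 0.12 and 1.34 in the control and METTL5-cKO TAC groups and -1.54 and -2.36 in the AdGFP and AdMETTL5 groups.

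The other genes of the pathways were taken as 4 lists, with 54 genes in the mouse and 53 in the rat tables. They held renin with the other angiotensin peptidases and receptors, the aldosterone and kinin genes, the remaining endothelin ligand with related proteases, and the G proteins, kinases and arrestins that couple the receptors to the cell. After TAC 4 of 41 tested genes were higher and 2 lower, or 14.6% against the 12.7% of all genes, with a median log2FC of -0.05. This count ran from 1 without control TAC library 4, where 2.87% of all genes passed, to 16 without METTL5-cKO TAC library 4, where 23.4% did. By list these were 1 higher and 2 lower of 15 in the angiotensin list, none of 3 in the aldosterone and kinin list, none of 2 in the endothelin list and 3 higher of 21 in the coupling list. Grk5, a kinase that phosphorylates active G protein-coupled receptors, was at 20.0 ± 1.36 CPM in the control and 44.6 ± 12.7 CPM with METTL5-cKO after TAC (SD, n = 4), with a log2FC of 1.15 (adjusted p = 0.00923, edgeR), and it passed in all 8 fits that left out 1 library. Mas1, the receptor of a counteracting angiotensin peptide, was lower, at 11 to 16 counts in the controls and 4 to 7 in the METTL5-cKO hearts. Its log2FC was -1.44 (adjusted p = 0.0139, edgeR), a call lost without control TAC library 4 (0.0527). The filter on low counts asked for a minimum count of 10, which Mas1 reached only in the controls. It thus entered the test through the group where it was higher. Ctsd, a lysosomal protease that can act on angiotensinogen, and the kinases Prkcd and Prkca were higher by 0.50, 0.48 and 0.65 on the log2 scale. Mme (neprilysin), which degrades both angiotensin and endothelin peptides, was lower, with a log2FC of -1.58. In this order the adjusted p were 0.0196, 0.0237, 0.0251 and 0.0385 (edgeR). These 4 calls were lost in 4, 3, 6 and 6 of the 8 fits that left out 1 library, and the groups of Prkca and Mme overlapped. Exons of Ctsd overlap Gm49369, and those of Prkca overlap Apoh on the other strand. Renin (Ren1) had no count in any heart.

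In NRVMs 15 of 39 tested genes of these lists were higher with AdMETTL5 and 8 lower, or 59.0% against 52.8% of all genes, with a median of 0.08. By list these were 7 higher and 1 lower of 12 in the angiotensin list, 1 higher and 1 lower of 4 in the aldosterone and kinin list, 1 higher of 3 in the endothelin list and 6 higher and 6 lower of 20 in the coupling list. The arrestin gene Arrb2 and the phospholipase gene Plcb1 were higher by 1.07 and 1.27 on the log2 scale (adjusted p = 3.22e-06 and 6.87e-06, edgeR), Plcb1 from 48 to 75 counts with AdGFP to 115 to 142 with AdMETTL5. Anpep, an aminopeptidase that cuts angiotensin III, was lower, from 47.7 ± 4.02 to 29.8 ± 2.34 CPM (SD, n = 4, log2FC -0.68, adjusted p = 1.18e-05, edgeR). Prep, a peptidase that can form that counteracting peptide, the G protein gene Gna13 and Sgk1, a target of the mineralocorticoid receptor, were higher by 0.39, 0.49 and 0.59 (adjusted p = 1.82e-05, 1.83e-05 and 4.49e-05, edgeR). Each of these 6 passed in all 8 fits that left out 1 library. At 1 month none of 41 tested genes and at 3 months none of 40 passed (edgeR), where 4 and 1 had an unadjusted p under 0.05, as did 4.57% and 7.05% of all genes tested.

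**Figure D5:**
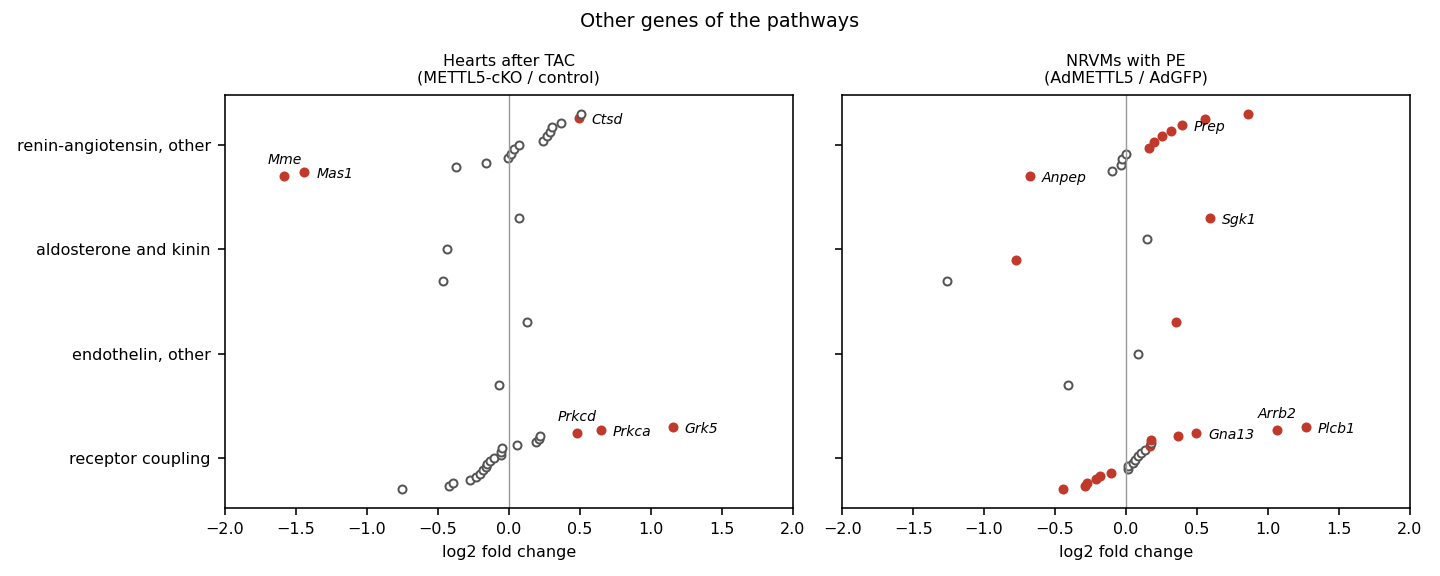
Log2 fold change of each tested gene of the 4 pathway lists (horizontal) after TAC (METTL5-cKO against control) and in NRVMs (AdMETTL5 against AdGFP), spread vertically by value within a list. Red filled points passed at adjusted p under 0.05 over all genes tested, and the 6 with the smallest adjusted p are named. Passing genes lie on both sides of 0 in either panel, 4 higher and 2 lower after TAC and 15 higher and 8 lower in NRVMs.

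The pattern of Ace over the 24 heart libraries was compared with that of the other genes among the 15542 tested in all 3 mouse tables, as the root mean square difference of log2 CPM after each gene was centred on its mean. Mllt11 (0.291), Prnp (0.302) and 1500009L16Rik (0.304) lay nearest, where the median gene lay at 0.857 and the log2 CPM of Ace itself had a standard deviation of 0.802. The libraries share groups, tables and depth, so this likeness is a description over 24 libraries.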

How the data were processed

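RNA of mouse hearts (24 libraries) and NRVMs (8 libraries) was sequenced by the BGIseq protocol. The authors deposited estimated counts per gene, rounded to whole numbers and not normalised. Per the labels, HISAT2 2.0.4, StringTie 2.1.4 and DESeq2 1.4.5 were used, on GRCm38 for the mouse and Rnor_6.0 for the rat. Totals ranged from 14324700 to 21804907 counts, and limits for 0 counts (3 counts, on TMM-scaled library sizes) cover counting error only, while intervals of fold changes come from the edgeR fit and include the spread between libraries.

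Each table was fitted on its own with edgeR 4.0.16 in R 4.3.3 (TMM scaling, filterByExpr with a minimum count of 10, quasi-likelihood test), with Benjamini-Hochberg adjustment over all genes tested. Counts were treated as in the planned count test although they are estimates. The study's rule also asks for an absolute log2 fold change above 1. An interaction term over the 3-month and TAC tables, and exact two-sided permutation tests over libraries, were added. Alternatives used DESeq2 1.42.0, other scalings and filters, and fits without each library. Scripts were tested on simulated data. The members and lists were chosen with earlier results of these data known. Named were all 9 members, up to 6 passing pathway genes per comparison by smallest adjusted p, and the 3 genes nearest in pattern to Ace. Replicate numbers shared between the 1-month groups did not pair the libraries. Columns of the 3-month and TAC hearts and of AdGFP name the group but not which sample, so those libraries carry numbers, in the order of the numbers in the column names, as names only. Exon lengths came from GENCODE vM21, which held 55227 of the 55487 mouse identifiers.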

Additional observations from a re-analysis of the deposited data

Results flagged for a closer look

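In 5 of 65 sets of 4 libraries, 1 library lay so far from the other 3 that its gap exceeded Dixon's 95% critical value, where chance flags about 1 set in 20. Control TAC library 1 was the highest of its group for Ace, at 76.1 CPM against 65.3 to 66.5 CPM, and for Agtr1a, at 19.1 CPM against 14.7 to 15.4 CPM. Without it the difference in Ace after TAC was 1.23 on the log2 scale. METTL5-cKO TAC library 4 had 53.0 CPM of Ednra against 27.4 to 28.9 CPM in the other 3, and it was also the library with the lowest Ace and the lowest fibroblast marker sum of its group. The same library had the highest cardiomyocyte, endothelial and mural marker sums of the group. Library 3 was the highest for Agt in both NRVM groups, at 2.04 CPM with AdGFP and 1.77 CPM with AdMETTL5.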

How the results depend on the processing

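The higher Ace after TAC and the lower Ace in NRVMs passed under every scaling, filter and tool tried and without any 1 library. Scaled by library size alone, the log2 fold change turned to -0.010 for Agt at 1 month, to 0.051 for Ece1 and 0.057 for Ednra after TAC, to 0.029 for Ece1 and 0.0081 for Ednra in NRVMs, and to 0.067 for Ece1 in the interaction. The difference of mean log2 CPM turned to 0.043 for Ece1, 0.13 for Agtr1a and 0.054 for Ednra after TAC, and to 0.029 for Ece1 and 0.012 for Ednra in NRVMs. This scaling moves all genes of a table together. Pathway genes passing after TAC then numbered 11, against 6, while those over all genes went from 12.7% to 15.8%.

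DESeq2 called 11 pathway genes after TAC (16.2% of all genes), 3 members in NRVMs (45.2%) and 1 member in the interaction (1.45%), and median-of-ratios factors gave 2 members in NRVMs (52.9%). At an unadjusted p under 0.05 there were 2 members at 1 month, 1 at 3 months, 3 in NRVMs and 2 in the interaction, and 4, 1 and 19 pathway genes at 1 month, at 3 months and after TAC. Of all genes 4.57%, 7.05%, 31.0%, 58.2% and 11.8% did so at 1 month, at 3 months, after TAC, in NRVMs and in the interaction. With the added minimum of 1 on the log2 scale, 3 pathway genes passed after TAC (2.90% of all genes), and 0 members and 2 pathway genes in NRVMs (5.85%). Over all genes, DESeq2 called 12 against 1 at 1 month, 96 against 12 at 3 months and 234 against 1 in the interaction, and a fit without the filter called 1 against 12 at 3 months and 1052 against 2071 after TAC. Edn1 after TAC was lost without a filter on low counts (adjusted p = 0.0801, edgeR). The cause was not tested.

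Fits that left out 1 library gave 1 to 3 members after TAC. Without control TAC library 2 or 4 it was 1 (Ace), where 4.20% and 2.87% of all genes passed. In NRVMs the fits gave 1 to 4 members, with 4 without AdGFP library 1 (49.8% of all genes). In the interaction they gave 0 to 1, with 1 (Ace) without METTL5-cKO TAC library 4, where 3.91% of all genes passed. They gave 1 to 16 pathway genes after TAC, with 1 in the fit lacking control TAC library 4 and 16 in the one lacking library 4 of METTL5-cKO TAC, where 478 and 3899 of all genes passed. Fold changes that turned had log2 ranges of -0.17 to 0.24 for Agt, -0.14 to 0.0039 for Ace and -0.22 to 0.0024 for Ednrb at 1 month. At 3 months they were -0.11 to 0.012 for Ece1, -0.35 to 0.13 for Edn1 and -0.13 to 0.13 for Ednrb. After TAC they were -0.13 to 0.10 for Agtr1a and -0.35 to 0.064 for Ednra, in NRVMs -0.34 to 0.011 for Agt and -0.076 to 0.21 for Edn1, and in the interaction -0.10 to 0.040 for Ece1. None of these had passed. The ratio of Agtr1a to Ednra had log2 differences of -0.44 to 0.11 at 3 months, -0.11 to 0.30 after TAC and -0.072 to 0.014 in NRVMs.

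In the 1-month fit with a replicate block, 0 members and 0 pathway genes passed, as without it. Correlations of same-numbered libraries were 0.239, 0.120, -0.107 and 0.0782, and 1 of 4 numbers had its best partner in its own number. No paired analysis was possible because the columns of the other 3 tables carry no replicate numbers shared between groups. Counts of 0 to 8 (Edn3 and Agtr2 at 1 month) were too low for a test.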
